A study of Medicago truncatula with 6 samples.

Results

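The proton-coupled sucrose transporters (SUTs), a sugar porter gene and an MFS transporter gene were examined in *M. truncatula* roots grown with or without *Gongronella* sp. w5, a soil fungus of the Mucoromycotina. The 8 genes were taken by their IDs from the 50443 genes of the deposited table. They comprise the 6 SUT genes named by the study (MtSUT1.2, MtSUT1.3, MtSUT1.4, MtSUT2, MtSUT4.1 and MtSUT4.2), the sugar porter gene Medtr2g020710 and the MFS transporter gene Medtr1g111510. The SUT genes were chosen by their family, though with earlier results of these data known. Medtr2g020710 and Medtr1g111510 instead stand in the study's own list of genes changed in these libraries, so their changes below are not independent evidence. The study also took both for qRT-PCR, in a choice that it calls random, and qRT-PCR was not analysed here. Each group held 3 biological replicates, with 6983430 to 7539956 counts per control library and 6547753 to 6822646 per w5 library.

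The w5 roots were of A17 seedlings sown on agar without a carbon source, beside a glucose medium that carried the fungus, and those in contact with mycelia were taken on day 16 after inoculation. The untreated roots (control) were of plants grown alone on the carbon-free agar. The sources used here do not say when control roots were taken, whether their plates also held the glucose medium, or how many plants went into each library. Effects of that medium, or of picking roots in contact with mycelia, cannot be told apart from those of w5. Control replicate 2 stood apart from the other libraries along the second principal component of log2 CPM (score -53.2, the 5 others between -18.5 and 37.3), so the results for Medtr2g020710, MtSUT2 and MtSUT4.2 are also given without it. In bulk roots, fewer cells of a type and less RNA per cell cannot be told apart.

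Sucrose reaches roots through the phloem, and plant SUTs move it across membranes together with protons, against its gradient. The SUT1 type is known in legumes and other dicots for loading sucrose into the phloem and for its uptake by sink cells. SUT2 proteins resemble SUT1 but carry a longer central loop, and members of the SUT4 type sit in the vacuolar membrane in *Arabidopsis* and *Lotus*, where they release stored sucrose. Sugar porters are a wider branch of the major facilitator superfamily (MFS), which includes carriers of hexoses and sugar alcohols. No source used here gives the substrates of Medtr2g020710 and Medtr1g111510.

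The study designed a primer pair for each of the 8 genes. The pairs of the 2 non-SUT genes, which had the largest positive changes, and of MtSUT1.2, which had no read, are shown 5′ to 3′, all in lower case, to identify the transcripts meant.
Medtr2g020710 forward: gcacccactcaagcggctatc
Medtr2g020710 reverse: tctcatagcccctttcctgcca
Medtr1g111510 forward: cgtccaattcatcaccgggcg
Medtr1g111510 reverse: acatgtaggtggctccggctg
MtSUT1.2 forward: cccacatcagtgggctgcca
MtSUT1.2 reverse: agggcgacgacgtccgaaac

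MtSUT2 had the highest level of the SUT family in every library, with 38.1% to 51.1% of the summed SUT level, followed by MtSUT4.1 and MtSUT1.4, except that MtSUT1.4 (19.3 FPKM) was above MtSUT4.1 (15.6 FPKM) in control replicate 3. Levels are compared between genes as the deposited FPKM, which are counts divided by gene length and by the total counts of the library. Mean levels in the controls and with w5 were 26.2 and 32.1 FPKM for MtSUT2 (Medtr8g468330), 15.5 and 18.0 for MtSUT4.1 (Medtr5g067470), 13.8 and 10.2 for MtSUT1.4 (Medtr6g033580), and 5.92 and 5.88 for MtSUT4.2 (Medtr3g110880). MtSUT1.3 (Medtr4g131920) lay between 0.914 and 2.51 FPKM in the controls and between 0.0825 and 0.871 with w5. Medtr2g020710 had 9.39 FPKM in the controls (13.2 without control replicate 2) and 22.3 with w5, and Medtr1g111510 had 3.06 and 7.94. Medtr2g020710 thus stood below MtSUT1.4 in the control means and above MtSUT4.1 in the w5 means. Medtr1g111510 stood below MtSUT4.2 in the former and above it in the latter. The place of Medtr2g020710 depends on the division by its length of 4947 bases. In CPM, which are not divided by length, its control mean (46.5) was already above those of MtSUT1.4 (26.7) and MtSUT4.1 (40.5). With w5 its mean of 111 CPM was above that of MtSUT2 (83.2). Medtr1g111510 and MtSUT4.2 kept their order in CPM, with 6.26 and 10.7 in the controls and 16.4 and 10.7 with w5. In FPKM, MtSUT2 was above MtSUT4.1 in 6 of 6 libraries with no overlap of their ranges. MtSUT1.4 was above MtSUT4.2 in 6 of 6, and Medtr1g111510 was above MtSUT1.3 in 6 of 6. The other neighbours, in the order of the mean over all libraries, changed places between libraries. MtSUT4.1 was above Medtr2g020710 in 3 control libraries but in 1 w5 library, Medtr2g020710 was above MtSUT1.4 in 1 control library and in 3 w5 libraries, and MtSUT4.2 was above Medtr1g111510 in 3 control libraries and in 0 w5 libraries. MtSUT1.2 (Medtr6g043880) had 0 counts in all libraries, which allows up to 0.0472 FPKM over the 6 libraries together for counting error alone.

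**Figure D1:**
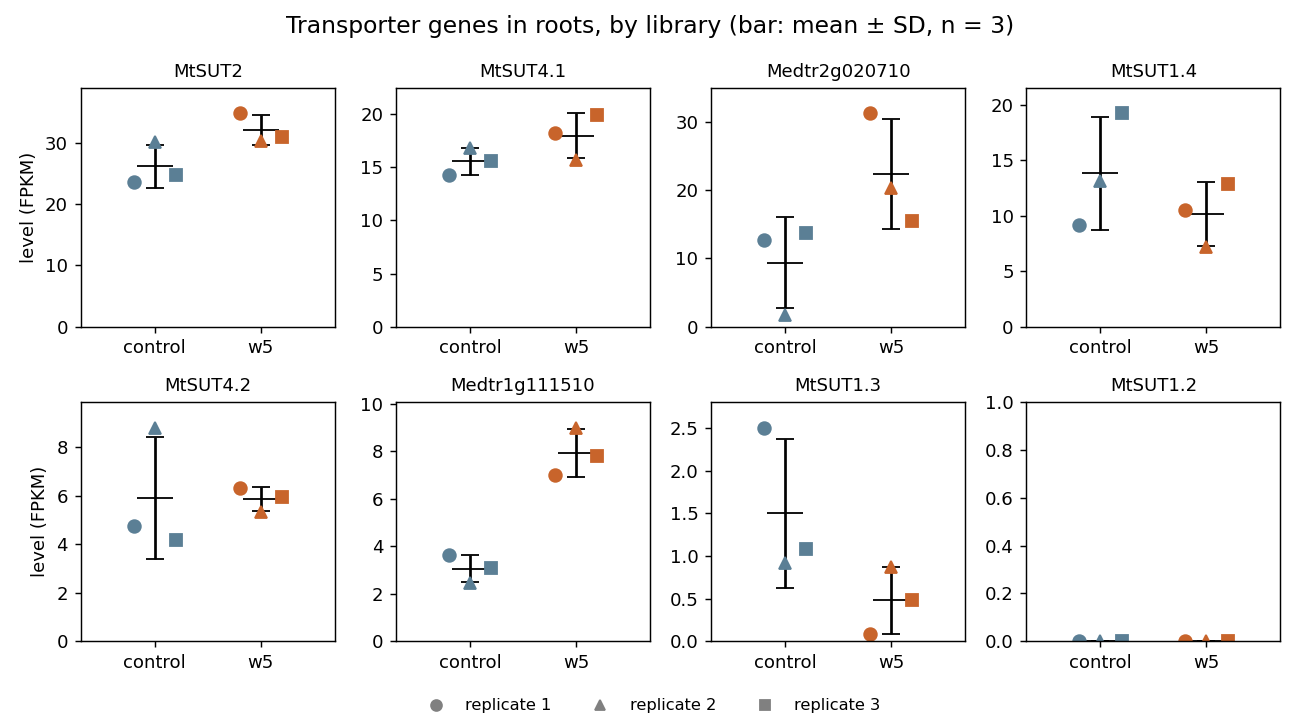
Level of each gene in FPKM (vertical axes, linear and from 0, scaled per gene) in the control (blue) and w5 (orange) libraries, with the mean and SD of 3 libraries in black and 1 marker shape per replicate number. Medtr1g111510 is higher in all w5 libraries, Medtr2g020710 is far lower in control replicate 2 than elsewhere, and MtSUT1.2 lies at 0.

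The summed level of the SUT genes differed little between the groups. It was 54.3, 69.8 and 64.8 FPKM in control replicates 1, 2 and 3 and 70.1, 59.5 and 70.2 FPKM in the w5 replicates. The groups overlapped, with means of 63.0 ± 7.90 and 66.6 ± 6.14 FPKM (SD, n = 3 in each group). The difference of 3.58 FPKM was smaller than either SD and became -0.745 without control replicate 1. When Medtr2g020710 and Medtr1g111510 were added, the sum of the 8 genes was 70.6, 74.1 and 81.6 FPKM in the controls and 108, 88.8 and 93.4 FPKM with w5, and the groups no longer overlapped. Both added genes stand in the study's list of genes changed in these libraries. The wider gap thus follows from adding them and is not independent evidence. Of the mean difference of 21.4 FPKM between these sums, Medtr2g020710 gave 12.9 and Medtr1g111510 gave 4.88. Without control replicate 2 the sums were 20.7 FPKM apart and Medtr2g020710 gave 9.12, and without w5 replicate 1 it gave 8.48.

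Within the SUT sum, the SUT1 type took a smaller share in every w5 library than in every control library, and MtSUT2 a larger one. SUT1 genes held 21.5%, 20.1% and 31.4% of the summed SUT level in the controls and 15.2%, 13.5% and 19.0% with w5. The means were 24.3 ± 6.17% and 15.9 ± 2.82% (SD, n = 3 in each group), a difference of -8.43 percentage points (w5 minus control). Control replicate 3 was the highest, and without it the SUT1 share differed by -4.89 points. Neither MtSUT1.4 nor MtSUT1.3 was apart on its own. MtSUT1.4 held 16.9% in control replicate 1 and 18.3% in w5 replicate 3. MtSUT1.3 held 1.31% in control replicate 2 and 1.46% in w5 replicate 2. The separation of the SUT1 share thus rests in part on MtSUT1.3, which had few counts. Without MtSUT1.3 the SUT1 difference was -7.07 points. MtSUT2 held 43.6%, 43.2% and 38.1% in the controls and 49.7%, 51.1% and 44.1% with w5, means of 41.6 ± 3.07% and 48.3 ± 3.70% (SD, n = 3 in each group). The closest libraries of the groups were thus control replicate 1 and w5 replicate 3, 43.6% and 44.1%. The share of the SUT4 type overlapped between the groups, at 34.1 ± 3.18% and 35.8 ± 0.963% (SD, n = 3 in each group). These shares add up to a fixed total and are not independent of each other. They are given as a description with no test, as they combine genes chosen with results known, and 3 libraries against 3 could in any case not reach a p below 0.1 in an exact permutation test.

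**Figure D2:**
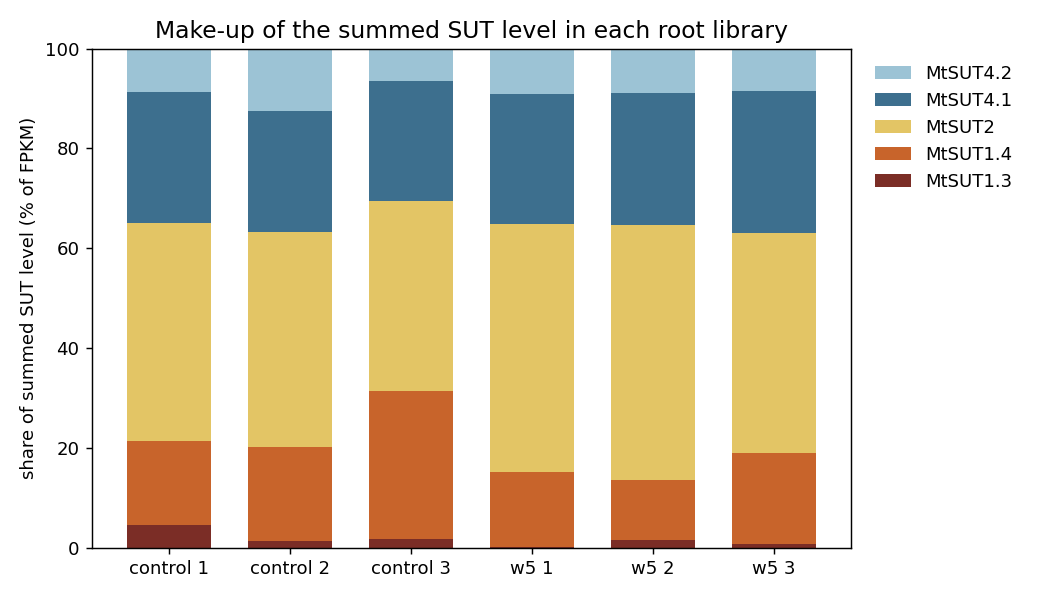
Share of each SUT gene in the summed SUT level, in percent of FPKM (vertical axis), for each control and w5 library; MtSUT1.2 is at 0 and not visible. The SUT1 segments at the bottom of the bars (MtSUT1.3 and MtSUT1.4) reach 20.1% to 31.4% in the controls and 13.5% to 19.0% with w5.

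With all 8 genes in the sum, the sugar porter gene Medtr2g020710 took 12.4 ± 8.71% of it in the controls and 22.8 ± 6.16% with w5, and the groups overlapped. The controls were at 18.0%, 2.35% and 16.8%, so that without control replicate 2 their mean was 17.4% and the difference to w5 went from 10.4 to 5.36 percentage points. Medtr1g111510 took 4.08 ± 0.931% and 8.32 ± 1.84%, and SUT1 genes 20.1 ± 4.33% and 11.0 ± 2.82% (SD, n = 3 in each group), neither with overlap. The sum includes Medtr2g020710 and Medtr1g111510, from the study's list of changed genes, so these separations are not independent evidence. That of the SUT1 genes joins MtSUT1.4 with the few counts of MtSUT1.3 and was not split by gene. All shares of this sum depend on the division by gene length and were not taken without it. MtSUT2 held 34.8 ± 5.38% and 33.2 ± 1.03%, and SUT4 genes 28.6 ± 5.39% and 24.7 ± 2.65%, both with overlap. Without control replicate 2, the difference for MtSUT2 turned from -1.67 to 1.29 points, and that for SUT4 genes went from -3.86 to -0.85 points.

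Whether any of the genes changed with w5 was asked with the quasi-likelihood test of edgeR on the 16905 genes that passed the expression filter, and p-values were adjusted over all of them by the Benjamini-Hochberg method. The filter kept 7 of the 8 genes and removed MtSUT1.2. None of the 7 passed at an adjusted p under 0.05, a rule that called 0.0177% of all genes tested. At an unadjusted p under 0.05 there was 1 of 7, against 11.1% of all genes tested. With an absolute log2 fold change over 1 also required, it was again 1 of 7 (Medtr1g111510). This looser rule called 4.77% of all genes, 2.03% as higher and 2.73% as lower. MtSUT1.3 also passed it under 6 of 17 alternative settings and Medtr2g020710 under 2, so the count ran from 1 to 3 of 7. The 95% interval left out 0 in 1 of 7, against 11.2% of all genes. In CPM, which are counts relative to the TMM-scaled library total, the groups did not overlap in 4 of 7 genes, 3 higher with w5 and 1 lower, against 16.1% of all genes tested (7.02% higher and 9.04% lower). Of these 4, Medtr2g020710 and Medtr1g111510 were picked by the study from these libraries. The median log2 fold change was 0.22 over the 7 genes, which include these picked genes, and -0.01 over all genes tested. Among the 5 SUT genes tested, the middle value was 0.003, that of MtSUT4.2.

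**Figure D3:**
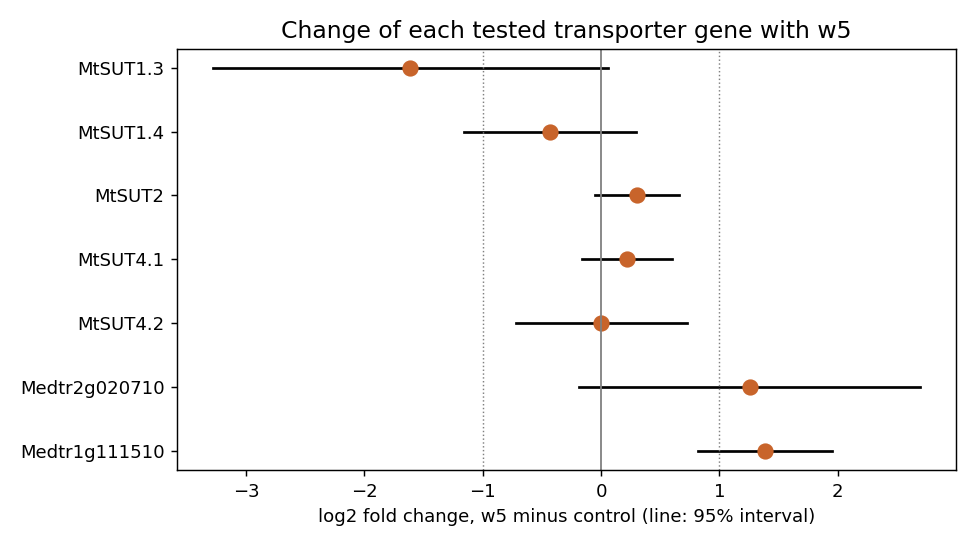
Log2 fold change of w5 against control (horizontal axis) for the 7 tested genes, as points with 95% intervals from edgeR; dotted lines mark -1 and 1. The interval leaves out 0 for Medtr1g111510 alone, from 0.82 to 1.95.

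The MFS transporter gene Medtr1g111510 had the change with the lowest p of the 7. It had 56, 36 and 44 counts in the control libraries and 94, 126 and 107 with w5, or 7.39, 5.05 and 6.34 CPM against 14.4, 18.5 and 16.3 CPM. The groups did not overlap, and the lowest w5 library was well above the highest control. The log2 fold change was 1.39 (standard error 0.25, a 2.61-fold difference with a 95% interval of 1.76 to 3.87; edgeR adjusted p = 0.0737). It stayed between 1.26 and 1.53 when each library was left out. DESeq2, which called 2.13% of the 25377 genes with a count, gave it an adjusted p of 0.00106.

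The sugar porter gene Medtr2g020710, the longest of the 8 at 4947 bases, had the widest spread among control roots. It had 473, 61 and 475 counts in control replicates 1, 2 and 3, and 1013, 685 and 510 with w5. In CPM these were 62.5, 8.56 and 68.5 against 155, 101 and 77.9. Every w5 library was above every control library, but w5 replicate 3 exceeded control replicate 3 by little beside the range of the controls. With an interval from -0.19 to 2.70, the log2 fold change of 1.26 (standard error 0.62) did not pass (edgeR adjusted p = 0.541). Without control replicate 2 it was 0.77 (edgeR adjusted p = 0.344), and without both control replicate 2 and w5 replicate 1, the lowest and the highest library, it was 0.45 (edgeR adjusted p = 0.367). This last pair of libraries was left out after their values had been seen.

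MtSUT2, the most abundant SUT, had 60.7, 77.3 and 64.0 CPM in the controls and 89.9, 78.4 and 81.3 CPM with w5. All w5 libraries lay above all controls, but control replicate 2 came close to w5 replicate 2, with 551 counts (95% counting interval 506 to 599) and 534 counts (490 to 581) in libraries of different size. With a log2 fold change of 0.30 (standard error 0.15, interval -0.05 to 0.66), MtSUT2 did not pass (edgeR adjusted p = 0.539). Without control replicate 2 it was 0.42 (edgeR unadjusted p = 0.0234, adjusted p = 0.322). That was the highest value with each library left out, which ran from 0.25 to 0.42.

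Among the SUT4 genes, MtSUT4.1 had 37.0, 43.7 and 41.0 CPM in the controls and 47.7, 41.1 and 53.0 CPM with w5, with w5 replicate 2 inside the control range. Its log2 fold change was 0.22 (95% interval -0.16 to 0.60, edgeR adjusted p = 0.727). The ratio of MtSUT2 to MtSUT4.1, taken within each library from FPKM, ran from 1.58 to 1.80 in the controls and from 1.55 to 1.93 with w5, so the pair kept close proportions in all 6 libraries. MtSUT4.2 had 8.58, 15.9 and 7.64 CPM in the controls and 11.5, 9.69 and 11.0 CPM with w5. Control replicate 2 was the highest of all 6 libraries for this gene. The log2 fold change was 0.00 (95% interval -0.72 to 0.72, edgeR adjusted p = 0.999). It became 0.41 without control replicate 2 (edgeR adjusted p = 0.577) and -0.17 without control replicate 3.

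Of the SUT1 genes, MtSUT1.4 was the only abundant one. It had 17.6, 25.1 and 37.3 CPM in the controls and 20.3, 13.8 and 25.2 CPM with w5, and the groups overlapped. The log2 fold change of -0.43 (interval -1.16 to 0.30) did not pass (edgeR adjusted p = 0.721), and it was -0.10 without control replicate 3, in which it was highest. MtSUT1.3 was close to the limit of detection, with 35, 12 and 14 counts in the controls and 1, 11 and 6 counts with w5. The groups did not overlap, but the counting intervals of control replicate 2 (6.20 to 21.0 counts) and w5 replicate 2 (5.49 to 19.7 counts) did. With an interval from -3.28 to 0.06, the log2 fold change of -1.61 (standard error 0.74) did not pass (edgeR adjusted p = 0.460). It was -1.02 without control replicate 1 and -2.33 without w5 replicate 2, so the size of this difference rests on single libraries.

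**Figure D4:**
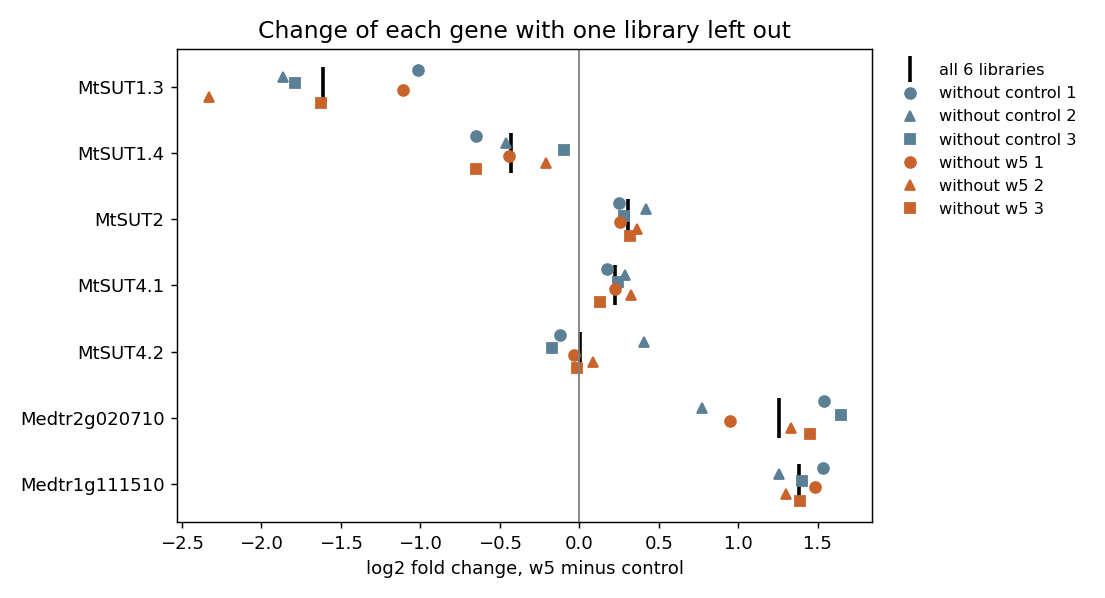
Log2 fold change of w5 against control (horizontal axis) for the 7 tested genes with all 6 libraries (black bar) and with each library left out (blue, a control; orange, a w5 library). Medtr1g111510 stays between 1.26 and 1.53, whereas Medtr2g020710 runs from 0.77 to 1.65 and MtSUT1.3 from -2.33 to -1.02.

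The control roots were not equally even for all transporters. MtSUT4.1 and MtSUT2 varied less than the median gene, with a coefficient of variation of 8.30% and 13.1% among the 3 control libraries. The median of all tested genes was 20.8%. Medtr1g111510 was near that median at 18.7%. MtSUT1.4 (37.4%), MtSUT4.2 (42.1%) and MtSUT1.3 (57.9%) varied more, and Medtr2g020710 varied most (71.0%). On the log2 scale, the SD of Medtr2g020710 among the controls was 1.67, and 0.822% of all tested genes had an SD at least as large. The same percentage was 11.8% for MtSUT1.3, 19.8% for MtSUT4.2, 20.8% for MtSUT1.4, 56.1% for Medtr1g111510, 72.8% for MtSUT2 and 86.4% for MtSUT4.1. All tested genes include many with few counts. Among the 11145 genes with a mean of at least 10 CPM, it was 0.377% for Medtr2g020710, 9.87% for MtSUT4.2 and 10.6% for MtSUT1.4. There it was 45.1% for Medtr1g111510, 65.0% for MtSUT2 and 82.3% for MtSUT4.1. MtSUT1.3, with 35, 12 and 14 counts in the controls, is below that level, so counting error weighs more in its spread. Without control replicate 2 the SD of Medtr2g020710 was 0.0937 and that of MtSUT4.2 was 0.114, so in both genes the spread rested on that library, which was low for the former and high for the latter. In MtSUT1.4 the highest control was replicate 3, and in MtSUT1.3 it was replicate 1. In the w5 libraries MtSUT4.2 had a coefficient of variation of 8.59% and Medtr2g020710 of 35.6%.

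**Figure D5:**
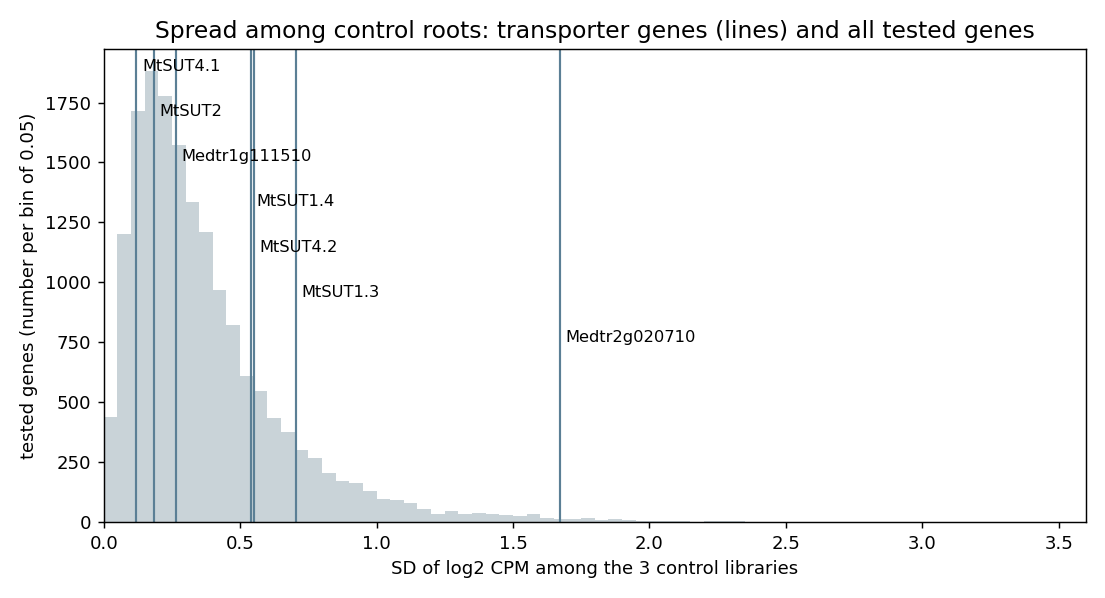
SD of log2 CPM among the 3 control libraries (horizontal axis), as a histogram of the 16905 tested genes (vertical axis, genes per bin) with a line for each of the 7 tested transporter genes. MtSUT4.1 (0.12) and MtSUT2 (0.18) lie below the median of the tested genes (0.296), and Medtr2g020710 (1.67) lies in the upper tail.

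The low level of Medtr2g020710 in control replicate 2 was not shared by most genes next to it in the order of gene IDs. Among the 12 IDs on either side, 8 genes were tested, and their ratio of control replicate 2 to the mean of the other controls ran from 0.301 to 1.52, against 0.131 for Medtr2g020710. The gene at 0.301, Medtr2g020820, differed in that control replicate 1 was high (15.1 CPM) and replicates 2 and 3 were low (2.53 and 1.73 CPM).

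The genes most like each of 4 transporters were sought by Pearson's r of log2 CPM over the 6 libraries among 11144 genes with a mean of at least 10 CPM, as a description. Closest to Medtr2g020710 were Medtr8g077135 (r = 0.991), Medtr4g115160 (r = 0.989) and Medtr8g031290 (r = 0.987). All 3 were lowest in control replicate 2 and highest in w5 replicate 1, as Medtr2g020710 was, which follows largely from picking them by r. Closest to Medtr1g111510 were Medtr7g102110 (r = 0.992), Medtr1g080590 (r = 0.982) and Medtr2g039570 (r = 0.974). Closest to MtSUT2 were Medtr6g012860 (r = 0.990), Medtr4g005730 (r = 0.989) and Medtr1g107510 (r = 0.986), and closest to MtSUT4.1 were Medtr1g492830 (r = 0.988), Medtr8g079780 (r = 0.986) and Medtr3g103170 (r = 0.985). An r over 0.9 was reached by 138 of the 11144 genes with Medtr2g020710, 100 with Medtr1g111510, 178 with MtSUT2 and 144 with MtSUT4.1.

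The other sugar genes of the study's primer list are 2 SWEET genes, whose products let sugars pass down their gradient, and 3 cell-wall invertase genes, whose products split sucrose outside the cell. All 5 were tested, and 0 passed at an edgeR adjusted p under 0.05. At an edgeR unadjusted p under 0.05 with an absolute log2 fold change over 1, MtSWEET15.3 was higher and MtCWInv2 was lower. Their log2 fold changes were 3.25 and -1.22. The same rule called 4.77% of all genes tested. MtSWEET15.3 had 4, 4 and 9 counts in the controls and 62, 79 and 13 with w5. The size of its change thus came mostly from w5 replicates 1 and 2, against few control counts. For MtCWInv2, control replicate 2 (19.7 CPM) was close to w5 replicate 1 (19.6 CPM). Even with w5, MtSWEET15.3 was at 6.77 ± 4.47 FPKM (SD, n = 3), below the 32.1 ± 2.44 FPKM (SD, n = 3) of MtSUT2. MtSUT2 in turn was below the cell-wall invertase gene MtCWInv1, at 117 ± 7.82 FPKM with w5 (SD, n = 3).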

How the data were processed

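Root RNA was sequenced from 3 control and 3 w5 libraries, which were read as pairs from stranded total RNA per the labels. The authors deposited read counts per gene (whole numbers, not normalized) and FPKM. The deposited FPKM equal the count over gene length and library total in all 131099 values above 0, to within 5.11e-15. The paper names the *M. truncatula* genome database as reference, while the submitters' processing notes name Bowtie 0.12.2 and the build mm8, a mouse genome. The sources used here name no counter, strand setting or annotation version. Close family members may therefore share reads, and no coordinates are printed. Whether replicates came from separate plates is not stated, so p-values measure the spread between these libraries.

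Counts were tested in R 4.3.3 with edgeR 4.0.16 (filterByExpr, TMM, robust dispersion, quasi-likelihood test, Benjamini-Hochberg), after a check on simulated data. Standard errors come from the fitted weights and quasi-dispersions. Log2 CPM used a prior count of 2, and counting intervals are exact 95% Poisson intervals that cover counting error only. The alternatives used DESeq2 1.42.0, limma 3.58.1, other scalings, filters, a replicate block and left-out libraries. The likelihood ratio test, the settings for the sum of the 8 genes and the counts of members by setting were chosen after seeing the data. The planned permutation tests of the sums and shares are not reported, since they combine genes chosen with results known. The named genes are the 8 transporters, the SWEET and invertase genes of the primer list, and for 4 transporters the 3 genes with the highest r. The reference table at hand gives no product names for these IDs, so no further family members were sought and no root markers were checked. The genes and lists were chosen with earlier results of these data known. Primer sequences come from the study's supplementary table.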

Additional observations from a re-analysis of the deposited data

How the results depend on the processing

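Over 17 alternatives for each of the 7 tested genes, only Medtr1g111510 changed its side of an adjusted p of 0.05, and only MtSUT4.2 changed sign. Medtr1g111510 passed with DESeq2 (log2 fold change 1.397, adjusted p = 0.00106), edgeR's exact test (1.39, adjusted p = 0.00110), no filter (1.39, adjusted p = 0.0319) and edgeR's likelihood ratio test (1.39, adjusted p = 9.01e-04), and its adjusted p was up to 0.262 in the others. MtSUT4.2, at 0.00, was -0.0106 with no scaling factor and between -0.17 and 0.41 with each library left out. The count of all genes at an adjusted p under 0.05 was 3 in the quasi-likelihood test, 540 with DESeq2, 529 with the exact test, 558 with the likelihood ratio test, 195 with no filter, 176 with the replicate block, 18 without control replicate 2 and w5 replicate 1 together, and 1 to 103 with each library left out. It was 103 without control replicate 3. The cause was not tested. The sources used here do not say that libraries of equal number belong together. Their deviations from the group means correlated at 0.230 for replicate 1, -0.0543 for replicate 2 and -0.0276 for replicate 3. The replicate block changed no call among the 7 genes. The difference in the SUT1 share lay between -10.5 and -4.89 percentage points with each library left out, that in the MtSUT2 share between 4.91 and 8.78, that in the SUT4 share between -0.02 and 3.07, and that in the summed SUT level between -0.745 and 7.13 FPKM. The SD of log2 CPM among the controls, with each control left out, ran from 0.160 to 0.930 for MtSUT1.3, 0.0535 to 0.246 for MtSUT2, 0.0648 to 0.168 for MtSUT4.1, 0.114 to 0.725 for MtSUT4.2, 0.0937 to 2.09 for Medtr2g020710 and 0.150 to 0.371 for Medtr1g111510. The count of transporters at an unadjusted p under 0.05 with an absolute log2 fold change over 1 was 1, but 3 with limma-voom and the likelihood ratio test (MtSUT1.3 and Medtr2g020710 added), 2 with the exact test and no filter (MtSUT1.3 added), and 1 to 2 with each library left out (MtSUT1.3 added without control replicate 2 or w5 replicate 2). Depth limits MtSUT1.2 and MtSUT1.3, as 3 counts correspond to 0.398 to 0.458 CPM in a single library.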

Other observations

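Medtr2g020710 was among 23 of 11145 genes with at least 10 CPM that were at least 4 times lower in control replicate 2 than in each other control, a group formed after seeing the values. In 21 of the 23, w5 replicate 1 was the highest w5 library, but the share of all genes for which this holds was not determined. Control replicate 1 was low by the same rule in 26 genes, control replicate 3 in 8, and w5 replicates 1, 2 and 3 in 2, 3 and 10.

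Beyond the primer list, 2 further sugar-related transporters stand in the study's own selection from these libraries, so their changes are not independent evidence. The GDP-mannose transporter gene Medtr3g096310, whose type of protein carries a sugar nucleotide into the Golgi apparatus, had 2.06 ± 0.169 FPKM in the controls and 4.48 ± 1.22 FPKM with w5 (SD, n = 3 in each group), with a log2 fold change of 1.13 (edgeR adjusted p = 0.112). The inositol transporter gene Medtr2g026160 had 64 counts over all libraries and did not pass the expression filter, with 1.15 ± 0.594 FPKM in the controls and 0.258 ± 0.151 FPKM with w5 (SD, n = 3 in each group).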
